A study of Mus musculus with 16 samples.

Results

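The sterol efflux and LXR target genes are 10 genes chosen by name for their roles in moving sterols out of cells and in the response to the liver X receptor. They are Abca1, Abcg1, Abcg5, Abcg8, Nr1h3, Lpcat3, Lcat, Scarb1, Pltp and Soat2, out of 78317 genes listed. All 10 were among the 14781 genes with enough reads to be tested. RNA was measured in whole liver of wild-type C57BL/6J mice, an inbred laboratory strain. Females and males arrived at 6 weeks of age and were then fed for 10 weeks, either on a normal chow in which fat gave 4.5% of calories or on a high fat diet in which it gave 60%. Each of the 4 groups had 4 libraries. The chow and the high fat diet were bought from separate makers, and other ingredients may differ as well. The labels do not say whether each library is 1 animal, so the p-values measure the spread between these libraries.

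LXR is a nuclear receptor that is switched on by oxysterols, the oxidised forms of cholesterol, and works in a pair with the retinoid X receptor. Its targets export cholesterol from cells, send it into bile, remodel membrane phospholipids and raise fatty acid synthesis. In liver the sterol-sensing factor SREBP2 works in the other direction: it drives cholesterol synthesis and uptake when cholesterol in the cell is low.

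Library totals ran from 22228115 to 41420589 counts. Levels are given as CPM, counts scaled to a fixed library total after TMM scaling, unless TPM is named. The least abundant member by counts, Abcg1, had between 118 and 385 counts in a library, and Lcat had between 5159 and 13286. Summed CPM of 6 hepatocyte markers (Alb, Ttr, Apoa1, Hnf4a, Cps1 and Tat) was 99940 to 113000 in females on the normal diet, 76930 to 92910 in females on the high fat diet and, for males, 79690 to 89950 on chow and 49180 to 71460 on the high fat diet. Of these markers, 3 of 6 fell with diet in each sex, beside 5.76% of all tested genes in females and 5.36% in males. The part of hepatocyte content in the results was not tested. Of 4 intestinal markers, Cdx2 and Sis were at 0 counts in all 16 libraries, and Vil1 reached at most 21 counts. Fabp2, the only 1 of the 4 that was tested, was at 51.07 CPM or more in every library. It rose with diet, with log2 fold changes of 1.064 in females and 1.095 in males, both called by edgeR. Replicates 2 and 3 of the males on the high fat diet were closer to each other than any other pair of libraries in a group, with a mean chi-square per gene of 4.0 against 20.7 for the next closest pair. A value near 1 would be sampling noise. They were treated as separate libraries, as labelled, and each test was also run with their average. Replicates 1 and 4 of that group were far from replicates 2 and 3, at 155 to 307, and had 54.5 between them. No pair in the other groups was above 95.8. The cause of this split was not tested.

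At an adjusted p under 0.05 in edgeR, the high fat diet lowered Abcg5 in females, and raised Scarb1 and lowered Soat2 in males. No member passed for the difference of the diet changes between the sexes. Of 24 alternative settings, 2 lost the Abcg5 call, 6 the Scarb1 call and 8 the Soat2 call. Pltp, Lcat, Abcg5 and Nr1h3 were higher in females than in males on the normal diet. Soat2, Pltp and Lcat were higher in females on the high fat diet, and Abca1 was higher in males. The Nr1h3 call was lost in 5 of the 24 settings. Those of Lcat and Abca1 on the high fat diet were lost in 10 and 7.

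**Figure D1:**
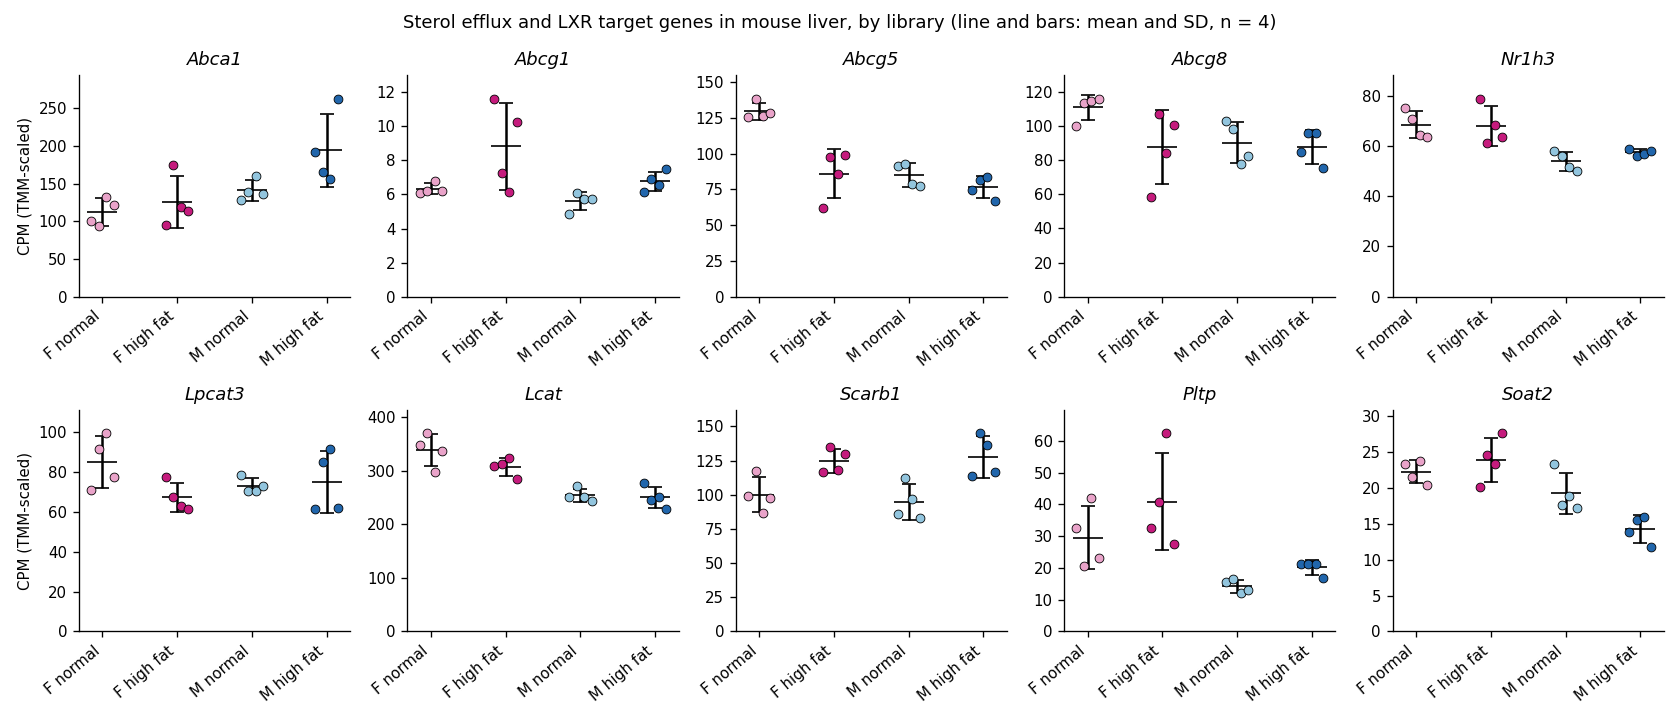
CPM of each of the 10 genes in every library, by sex and diet, with bars at the group means and error bars of 1 SD (n = 4). Abcg5 on the normal diet sits between 125 and 138 in females, above the other 12 libraries, and Pltp is higher in females than in males on each diet.

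Per length, the 10 genes spanned a wide range. Lcat was the most abundant in each group, at 363 ± 11.8 TPM in females on the normal diet, 390 ± 9.79 in females on the high fat diet, 273 ± 23.4 in males on the normal diet and 282 ± 20.4 in males on the high fat diet (mean ± SD, n = 4). Its libraries lay above those of the next gene in each group. Abcg1 was the least abundant in each group, at 1.32 ± 0.142, 2.15 ± 0.649, 1.15 ± 0.111 and 1.46 ± 0.134 TPM in the same order. Scarb1 was next after Lcat in 3 groups, and Abcg5 was next in females on the normal diet, at 70.8 ± 4.31 TPM. Between these ends many neighbours overlapped. In females on the normal diet Nr1h3, Scarb1, Lpcat3 and Abcg8 followed in that order, each neighbour overlapping the next, and Abcg8 lay above Pltp. In males on the normal diet Abca1 lay above Soat2 at 15.8 ± 2.20 against 11.2 ± 1.18 TPM, and Soat2 overlapped Pltp.

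Abcg5 and Abcg8 encode the partner subunits of a transporter at the bile canaliculus that sends cholesterol and plant sterols into bile. The genes lie head to head on chromosome 17, on opposite strands, with 109 bases between their start sites in the RefSeq table for GRCm38.p6. The files were made on GRCm39, per the submitters' processing notes, so these coordinates belong to the table alone. The stretch at chr17:84683012-84683120, on the plus strand (read towards Abcg8), is shown because both genes start at its ends. Capitals mark GATAA on the minus strand, seen as TTATC, and TATAAA on the minus strand, seen as TTTATA.
Abcg5-Abcg8 intergenic: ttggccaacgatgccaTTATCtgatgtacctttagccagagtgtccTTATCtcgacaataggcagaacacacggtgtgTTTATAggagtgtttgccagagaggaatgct
Over 32851 RefSeq promoter windows of 300 bases, searched on both strands, GATAA was present in 25.4% and TATAAA in 13.6%. These are letter matches and are descriptions only.

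Abcg5 was at 125, 138, 127 and 128 CPM in females on the normal diet and at 62.1, 97.4, 85.5 and 98.7 CPM in females on the high fat diet. Males had 91.6, 93.0, 78.9 and 77.1 CPM on the normal diet and 74.5, 81.5, 83.6 and 67.0 CPM on the high fat diet. The females on the normal diet stood above every other library, and the other groups overlapped each other. The high fat diet lowered Abcg5 in females by 0.59 ± 0.13 on the log2 scale (log2 fold change ± SE, edgeR quasi-likelihood test, Benjamini-Hochberg adjusted p = 0.006818), from 129.6 ± 5.98 to 85.9 ± 16.98 CPM (mean ± SD, n = 4). It was the only member called in that comparison, and also the only one whose libraries did not overlap between the diets. Over all tested genes 11.5% were called (5.74% higher and 5.76% lower) and 18.3% did not overlap, so 1 of 10 is near the background on the first measure and below it on the second. In males the log2 fold change was -0.15 ± 0.13 (adjusted p = 0.4829). The difference between the changes in the sexes was -0.44 ± 0.18 (adjusted p = 0.3038), which did not pass the threshold. Between the sexes Abcg5 was higher in females on the normal diet by 0.61 ± 0.13 (adjusted p = 0.004068), and this held in all 24 alternatives (adjusted p from 0.0001492 to 0.01916). With high fat feeding the log2 fold change was 0.16 ± 0.13 (adjusted p = 0.3791). On log2 TPM the fall in females missed the threshold, at -0.36 with a pseudocount of 1 (limma, adjusted p = 0.06082) and -0.37 with a pseudocount of 0.1 (adjusted p = 0.06255). Adjusted p over its 24 alternatives ran from 0.0004003 to 0.06255. On the TPM scale the median of all tested genes moved up by 0.149 and 0.222 in females, and relative to these shifts Abcg5 was -0.51 and -0.59.

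Abcg8 was at 99.8, 113, 114 and 116 CPM in females on the normal diet and at 58.4, 107, 84.3 and 101 CPM in females on the high fat diet. In males it was at 103, 98.0, 77.4 and 82.4 CPM on the normal diet and 84.4, 95.7, 95.7 and 75.2 CPM on the high fat diet. The diets overlapped in each sex and the sexes on each diet, and replicate 1 of the females on the high fat diet was the lowest of the 16 libraries for both transporter genes. The log2 fold change with diet in females was -0.34 ± 0.15 (adjusted p = 0.1556), and -0.19 without that library (adjusted p = 0.3511, range over the alternatives 0.07647 to 0.5688). Abcg5 without it was -0.46 (adjusted p = 0.0111). In males the log2 fold change of Abcg8 was -0.04 ± 0.15 on counts and 0.03 on log2 TPM, and did not pass the threshold in either. Between the sexes it was 0.30 ± 0.15 on the normal diet (adjusted p = 0.1962), and -0.00 ± 0.15 on the high fat diet (adjusted p = 0.9891), where it was 0.12 on log2 TPM.

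Taking each library as its distance from its group mean, Abcg5 and Abcg8 had a Pearson correlation of 0.959 over 16 libraries, the highest of the 45 pairs of members. The next were Abcg5 with Soat2 at 0.705 and Abcg8 with Soat2 at 0.682, and the lowest was Abca1 with Nr1h3 at -0.559. These points share library depth and scaling, and Abcg5 and Abcg8 have overlapping exons on opposite strands in GENCODE M21. Whether counting used the strand is not given in the sources used here, so reads in the overlap may be split between them. The ratio of Abcg5 to Abcg8 in CPM was 1.26, 1.22, 1.11 and 1.11 in females on the normal diet and 1.06, 0.912, 1.02 and 0.98 in females on the high fat diet. Males had ratios of 0.89, 0.949, 1.02 and 0.935 on the normal diet and 0.883, 0.852, 0.873 and 0.891 on the high fat diet. Females on the normal diet had the highest ratios, with no overlap with any other group.

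**Figure D2:**
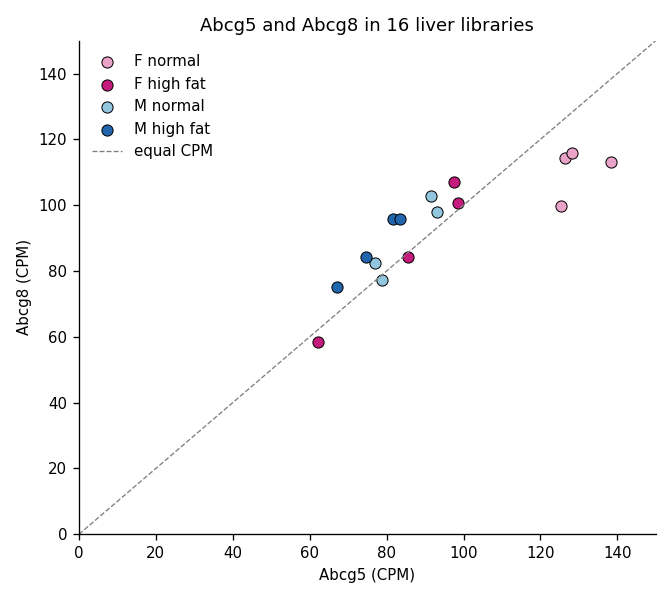
Abcg5 against Abcg8 in CPM, 1 point per library, coloured by sex and diet. The females on the normal diet lie to the Abcg5 side, with ratios of 1.11 to 1.26, and replicate 1 of the females on the high fat diet is the lowest for both genes.

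Abca1 encodes the transporter that passes cholesterol and phospholipid to apolipoprotein A-I, the first step in forming HDL. The 250 bases before its start site at chr4:53159896-53160145 (minus strand, GRCm38.p6, RefSeq table) are shown because Abca1 is a textbook LXR target with an element near its start. Capitals mark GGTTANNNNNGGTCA, seen on the other strand as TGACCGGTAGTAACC, and TATAAA.
Abca1: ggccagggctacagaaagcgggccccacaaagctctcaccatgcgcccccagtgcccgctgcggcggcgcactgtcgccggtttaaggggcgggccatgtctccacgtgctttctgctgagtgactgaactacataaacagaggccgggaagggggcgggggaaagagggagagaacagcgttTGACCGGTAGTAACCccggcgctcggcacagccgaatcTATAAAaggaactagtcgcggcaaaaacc
The first motif was chosen after the sequence was read. It was present in 0.0487% of promoter windows and in 1 of the 9 windows of the members. The strict repeat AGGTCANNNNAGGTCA was in 0.0152% of windows and in none of the 9, and its half-site AGGTCA was in 16.3% and in none of the 9. RefSeq windows were found for 7 of the 10 members.

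Abca1 was at 101, 94.0, 133 and 122 CPM in females on the normal diet and 95.7, 174, 119 and 114 CPM in females on the high fat diet. Males had 129, 139, 161 and 137 CPM on the normal diet and 192, 166, 157 and 263 CPM on the high fat diet. Replicate 4 of the males on the high fat diet was the highest of the 16, and the diet groups overlapped in each sex. The log2 fold change with diet was 0.16 ± 0.18 in females (adjusted p = 0.6055) and 0.46 ± 0.18 in males (adjusted p = 0.1078). On the high fat diet Abca1 was lower in females than in males by a log2 fold change of -0.63 ± 0.18 (adjusted p = 0.0213), at 125.7 ± 34.0 against 194 ± 48.1 CPM. The groups overlapped there through replicate 2 of the females, at 174 CPM. The call was lost without replicate 1 of the females on the high fat diet (-0.52, adjusted p = 0.06961), replicate 3 (-0.58, adjusted p = 0.05221) or replicate 4 (-0.58, adjusted p = 0.06332) and without replicate 4 of the males on it (-0.45, adjusted p = 0.09314). It was also lost on log2 TPM with a pseudocount of 1 (-0.44, adjusted p = 0.1125) or 0.1 (-0.46, adjusted p = 0.1164) and with only the groups compared (-0.60, adjusted p = 0.07679). On the normal diet the log2 fold change between the sexes was -0.33 ± 0.18 (adjusted p = 0.2309). Over the 24 alternatives the adjusted p ran from 0.003626 to 0.1164 on the high fat diet. On the normal diet it ran from 0.0777 to 0.4614. Replicates 1 and 4 of the males on the high fat diet, the highest for Abca1, also had the highest summed CPM of lipid-associated macrophage markers in their group, at 99.5 and 105 against 70.2 and 61.5, and the lowest of hepatocyte markers. Spp1 was the most abundant of those 6 macrophage markers in that group, at 63.5 ± 20.0 CPM (mean ± SD, n = 4). Mmp12 was next, at 8.45 ± 3.40 CPM. The part of macrophages and hepatocytes in the Abca1 level was not tested.

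Abcg1 encodes a transporter that passes cholesterol to mature HDL and is abundant in macrophages. It was at 6.08, 6.22, 6.81 and 6.21 CPM in females on the normal diet and 11.6, 7.24, 6.17 and 10.3 CPM in females on the high fat diet. Males had 4.86, 6.08, 5.75 and 5.71 CPM on the normal diet and 6.13, 6.93, 6.53 and 7.48 CPM on the high fat diet. Replicates 1 and 4 of the females on the high fat diet were above all other libraries, while replicate 3 lay within the normal diet. The log2 fold change was 0.48 ± 0.16 in females (adjusted p = 0.06493) and 0.27 ± 0.17 in males (adjusted p = 0.3125, groups not overlapping). The female value passed the threshold in DESeq2 (adjusted p = 0.04551), on log2 TPM with a pseudocount of 1 (adjusted p = 0.02752) or 0.1 (adjusted p = 0.03243), and without replicate 2 (adjusted p = 0.04436) or replicate 3 (adjusted p = 0.015) of the females on the high fat diet. It was 0.32 without replicate 1 (adjusted p = 0.206) and 0.40 without replicate 4 (adjusted p = 0.1864) of that group. Relative to the shift of all genes on the TPM scale, the value was 0.27 with a pseudocount of 1 and 0.40 with 0.1. Over its 24 alternatives adjusted p ran from 0.015 to 0.206. Between the sexes the log2 fold change was 0.17 ± 0.17 on the normal diet (adjusted p = 0.5132) and 0.39 ± 0.17 on the high fat diet (adjusted p = 0.1038), the latter called without replicate 3 of the females (0.55, adjusted p = 0.02196, range 0.02196 to 0.361).

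Summed CPM of 6 Kupffer cell markers (Clec4f, Vsig4, Timd4, Cd5l, Adgre1 and Marco) was 229.5 to 338 in females on the normal diet and 379.7 to 562.6 in females on the high fat diet. In males it was 211 to 335 on the normal diet and 180.2 to 387 on the high fat diet. Of the 6, 1 rose with diet in females, Cd5l. There all 6 log2 fold changes were positive and 4 of the 6 had groups that did not overlap, beside 18.3% of all tested genes. At an unadjusted p under 0.05 edgeR had 5 of 6, and the share of all tested genes at that level is not reported here. In males none was called by edgeR and none had an unadjusted p under 0.05. The female groups did not overlap in this sum, and the male groups did. None of the 6 was at 0 in any library. The 6 lipid-associated macrophage markers (Trem2, Gpnmb, Cd9, Spp1, Itgax and Mmp12) summed to 59.7 to 76.8 CPM in females on the normal diet and 60.8 to 101.5 on the high fat diet, and to 50.2 to 65.7 and 61.5 to 105 in males. Of these, 3 rose with diet in females, and in males 3 rose and 1, Cd9, fell. Over all tested genes 11.5% were called with diet in females and 11.4% in males. Spp1 was the most abundant of the 6 in each group. In bulk tissue fewer cells of a type and less RNA per cell cannot be told apart. The part of these cells in the Abcg1 and Pltp levels was not tested.

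**Figure D3:**
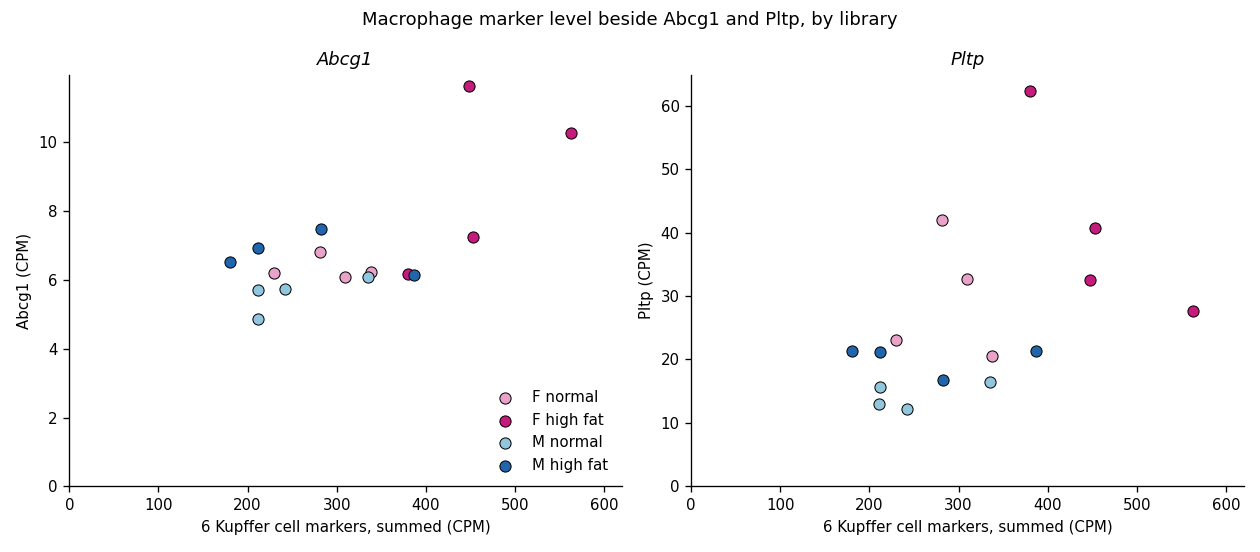
Abcg1 and Pltp in CPM against the summed CPM of the 6 Kupffer cell markers, 1 point per library. The females on the high fat diet have marker sums of 379.7 to 562.6, and the Abcg1 levels in that group run from 6.17 to 11.6.

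Scarb1 encodes SR-BI, the receptor through which hepatocytes take up cholesterol esters from HDL. It was at 99.4, 117, 86.4 and 97.5 CPM in females on the normal diet and 117, 135, 118 and 130.0 CPM in females on the high fat diet. Males had 85.9, 112, 96.9 and 83.1 CPM on the normal diet and 114, 145, 136 and 116 CPM on the high fat diet. The male groups did not overlap, and in females the top normal diet library overlapped the lowest high fat one. Scarb1 rose with diet in males by 0.43 ± 0.12 on the log2 scale (adjusted p = 0.02579), from 94.5 ± 13.2 to 128 ± 15.2 CPM. In females the log2 fold change was 0.32 ± 0.12 (adjusted p = 0.09175), and passed the threshold on log2 TPM with a pseudocount of 1 (0.56, adjusted p = 0.005782), with a range over the alternatives of 0.005782 to 0.2057. Relative to the shift of all genes on that scale it was 0.41. The difference between the sexes was -0.12 ± 0.17 (adjusted p = 0.8307), with an interval of about 2 SE each way from -0.45 to 0.22, and 0.06 on log2 TPM. Between the sexes the log2 fold change was 0.08 ± 0.12 on the normal diet (adjusted p = 0.6815), and -0.03 ± 0.12 on the high fat diet (adjusted p = 0.866), where it was 0.14 on log2 TPM. The male call was lost without replicate 1 (adjusted p = 0.07628), 3 (adjusted p = 0.0566) or 4 (adjusted p = 0.08325) of the males on the normal diet, without replicate 2 (adjusted p = 0.08924) or 3 (adjusted p = 0.07081) of the males on the high fat diet, and with those 2 averaged (0.38, adjusted p = 0.07838). Its adjusted p over all alternatives ran from 0.006742 to 0.08924.

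Soat2 encodes the enzyme that esterifies cholesterol in hepatocytes for storage and lipoprotein assembly. It was at 23.4, 21.6, 23.8 and 20.3 CPM in females on the normal diet and 20.1, 24.6, 23.3 and 27.6 CPM in females on the high fat diet. Males had 23.4, 17.7, 18.8 and 17.1 CPM on the normal diet and 13.9, 15.6, 15.98 and 11.7 CPM on the high fat diet. The males on the high fat diet lay below every other library. In males Soat2 fell by 0.43 ± 0.13 on the log2 scale with diet (adjusted p = 0.03623), from 19.3 ± 2.83 to 14.3 ± 1.93 CPM, and in females the log2 fold change was 0.10 ± 0.13 (adjusted p = 0.6413). The difference of the changes was 0.53 ± 0.18 (adjusted p = 0.2114), which did not pass the threshold. On the high fat diet Soat2 was higher in females by 0.74 ± 0.13 on the log2 scale (adjusted p = 0.0007438), at 23.9 ± 3.12 against 14.3 ± 1.93 CPM, and this held in all 24 alternatives (adjusted p from 2.159e-06 to 0.00562). On the normal diet the log2 fold change between the sexes was 0.21 ± 0.13 (adjusted p = 0.2717). The fall in males was lost without replicate 1 (-0.33, adjusted p = 0.1204) or 3 (-0.44, adjusted p = 0.06781) of the males on the normal diet, without replicate 1 (-0.42, adjusted p = 0.06041) or 4 (-0.35, adjusted p = 0.1179) of the males on the high fat diet, with no filter on low counts (adjusted p = 0.05749), with only the groups compared (adjusted p = 0.06752) and on log2 TPM (adjusted p = 0.1081 and 0.1008). Its adjusted p over all alternatives ran from 0.01793 to 0.1204.

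In males 2 of the 10 members were called with diet and 4 had groups that did not overlap (Scarb1, Soat2, Pltp and Abcg1). Over all tested genes 11.4% were called (6.03% higher and 5.36% lower) and 18.5% did not overlap.

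Pltp encodes the phospholipid transfer protein of plasma, which remodels HDL. It was at 32.7, 20.5, 42.0 and 23.1 CPM in females on the normal diet and 32.5, 40.8, 62.4 and 27.7 CPM in females on the high fat diet. Males had 15.6, 16.4, 12.2 and 12.9 CPM on the normal diet and 21.3, 21.2, 21.4 and 16.8 CPM on the high fat diet. Each female library was above all male libraries on the same diet, and the diet groups overlapped in females but not in males. Pltp was higher in females by 1.05 ± 0.24 on the log2 scale on the normal diet (adjusted p = 0.008755) and by 1.02 ± 0.24 on the high fat diet (adjusted p = 0.008341). Both calls held in all 24 alternatives. With diet the log2 fold change was 0.47 ± 0.24 in females (adjusted p = 0.2191) and 0.50 ± 0.24 in males (adjusted p = 0.1965), the latter 0.03183 with only the groups compared and up to 0.3977 in the other alternatives. The female value was 0.20 without replicate 3 of the females on the high fat diet. Pltp has exons that overlap Ctsa on the opposite strand, so its counts are uncertain in the same way as those of Abcg5 and Abcg8. The 250 bases before its start site, at chr2:164857709-164857958 (minus strand, GRCm38.p6, RefSeq table), are shown because it is the member with the largest difference between the sexes. Capitals mark CCAAT on the other strand, seen as ATTGG, which was present in 37.4% of windows.
Pltp: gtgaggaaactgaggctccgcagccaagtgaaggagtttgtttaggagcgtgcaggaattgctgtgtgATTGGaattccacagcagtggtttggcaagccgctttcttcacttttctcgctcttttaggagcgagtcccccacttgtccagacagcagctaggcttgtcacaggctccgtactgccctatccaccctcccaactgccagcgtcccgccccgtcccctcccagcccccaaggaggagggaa

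Lcat encodes the plasma enzyme that esterifies cholesterol on HDL. It was at 347, 369, 298 and 337 CPM in females on the normal diet and 308, 312, 324 and 285 CPM in females on the high fat diet. Males had 251, 272, 250.3 and 244 CPM on the normal diet and 276, 245, 251 and 228 CPM on the high fat diet. Female libraries lay above male libraries on each diet, while the diets overlapped within each sex. Lcat was higher in females on the normal diet by 0.41 ± 0.10 on the log2 scale (adjusted p = 0.008747), at 338 ± 29.8 against 254 ± 12.1 CPM, and this held in all 24 alternatives (adjusted p from 5.965e-05 to 0.038). On the high fat diet it was higher by 0.30 ± 0.10 (adjusted p = 0.03905). That call was lost without replicate 1 (adjusted p = 0.05872), 2 (adjusted p = 0.07027) or 3 (adjusted p = 0.07038) of the females on the high fat diet, without replicate 2 (adjusted p = 0.08084), 3 (adjusted p = 0.05654) or 4 (adjusted p = 0.1194) of the males on it, and without replicate 3 of the males on the normal diet (adjusted p = 0.05062). It was also lost with the close pair of male libraries averaged (adjusted p = 0.06109), with no filter on low counts (adjusted p = 0.1258) and with only the groups compared (adjusted p = 0.08231). Adjusted p ran from 0.001114 to 0.1258 in all. With diet the log2 fold change was -0.14 ± 0.10 in females and -0.02 ± 0.10 in males, neither called, and they were 0.10 and 0.05 on log2 TPM with a pseudocount of 1. Relative to the shift of all genes on that scale they were -0.045 and -0.002.

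Nr1h3 encodes LXR alpha, the main liver form of the receptor. It was at 75.1, 70.9, 64.4 and 63.6 CPM in females on the normal diet and 78.9, 61.3, 68.2 and 63.6 CPM in females on the high fat diet. Males had 57.8, 55.8, 51.8 and 49.9 CPM on the normal diet and 59.0, 56.2, 56.8 and 58.2 CPM on the high fat diet. Female libraries were above male libraries on each diet, by narrow margins. Nr1h3 was higher in females on the normal diet by 0.35 ± 0.09 on the log2 scale (adjusted p = 0.01823). The call was lost without replicate 1 (adjusted p = 0.06051) or 2 (adjusted p = 0.0542) of the females on the normal diet. It was also lost without replicate 3 (adjusted p = 0.05801) or 4 (adjusted p = 0.0637) of the males on that diet, and with no filter on low counts (adjusted p = 0.0533). Its range was 0.003406 to 0.0637. On the high fat diet the log2 fold change was 0.24 ± 0.09 (adjusted p = 0.07625). It passed the threshold in DESeq2 (adjusted p = 0.03588) and on log2 TPM (adjusted p = 0.003393 with a pseudocount of 1), where the value was 0.39, or 0.29 relative to the shift of all genes, with a range of adjusted p of 0.003393 to 0.2124. With diet it was -0.01 ± 0.09 in females (0.22 on log2 TPM with a pseudocount of 1, and 0.07 relative to the shift of all genes) and 0.10 ± 0.09 in males, neither of which passed the threshold on counts. Nr1h3 shares exons with Gm13783 on the same strand.

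Lpcat3 encodes an acyltransferase that puts polyunsaturated chains into membrane phospholipids. It was at 70.8, 91.7, 99.4 and 77.3 CPM in females on the normal diet and 77.6, 67.5, 62.8 and 61.2 CPM in females on the high fat diet. Males had 78.7, 70.6, 70.2 and 73.0 CPM on the normal diet and 61.5, 84.9, 91.5 and 62.2 CPM on the high fat diet. All 4 groups overlapped, and in males on the high fat diet replicates 2 and 3 were high and 1 and 4 low. The log2 fold change with diet was -0.33 ± 0.14 in females (adjusted p = 0.1222) and 0.04 ± 0.14 in males (adjusted p = 0.8946), the latter -0.05 with replicates 2 and 3 averaged. Between the sexes it was 0.21 ± 0.14 on the normal diet (adjusted p = 0.3101), and -0.16 ± 0.14 on the high fat diet (adjusted p = 0.4355), where it was 0.03 on log2 TPM. Lpcat3 has exons that overlap Emg1 on the opposite strand.

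Between the sexes 4 of 10 members were called on the normal diet, all higher in females, and 5 did not overlap (those 4 and Abcg1, whose nearest female and male libraries were both 6.08 CPM at the printed precision), beside 15.7% called (7.03% higher and 8.68% lower in females) and 22.0% not overlapping over all tested genes. On the high fat diet 4 were called, 3 higher and 1 lower in females, and 4 did not overlap (Soat2, Pltp, Lcat and Nr1h3, the last not called), beside 20.4% called (8.84% higher and 11.6% lower in females) and 22.7% not overlapping. The 5 stellate cell markers were Lrat, Reln, Dcn, Des and Col1a1. Their summed CPM was 290.9 to 314 in females and 192 to 230.3 in males on the normal diet, without overlap. There 2 of 5 were called higher in females. On the high fat diet the sums were 262 to 317 against 233 to 304, with 1 of 5 called higher. Dcn was the most abundant of the 5, at 235.8 ± 20.95 CPM in females and 159.9 ± 12.13 in males on the normal diet (mean ± SD, n = 4). Col1a1 went the other way, with a log2 fold change of -1.137 on the normal diet and -0.724 on the high fat diet, neither called. The 5 sinusoidal endothelial markers were Stab2, Clec4g, Lyve1, Kdr and Pecam1. Their summed CPM was 120.8 to 141 in females and 106 to 118 in males on the normal diet, also without overlap. There 1 of 5 was called higher in females. On the high fat diet the sums were 119.7 to 160.5 against 111 to 132, with 1 of 5 called higher. Lyve1 went the other way on each diet and was not called. Of the 6 Kupffer cell markers none was called on the normal diet, where edgeR had 1 at an unadjusted p under 0.05, and 4 were higher in females on the high fat diet, with the sums given above. None of these markers was at 0 in any library, and their part in the differences between the sexes was not tested. The median log2 fold change of the 10 was 0.26 on the normal diet and 0.20 on the high fat diet, beside -0.00 and -0.01 over all tested genes. No member was called for the difference of the diet changes between the sexes, by edgeR beside 0.677% of all tested genes or by DESeq2 beside 2.28%. At an unadjusted p under 0.05 edgeR had 2 of 10 members, Abcg5 and Soat2, beside 13.0% of all tested genes. The difference for the other 8 ran from -0.37 ± 0.19 for Lpcat3 to 0.21 ± 0.23 for Abcg1, with adjusted p from 0.4383 to 0.981.

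**Figure D4:**
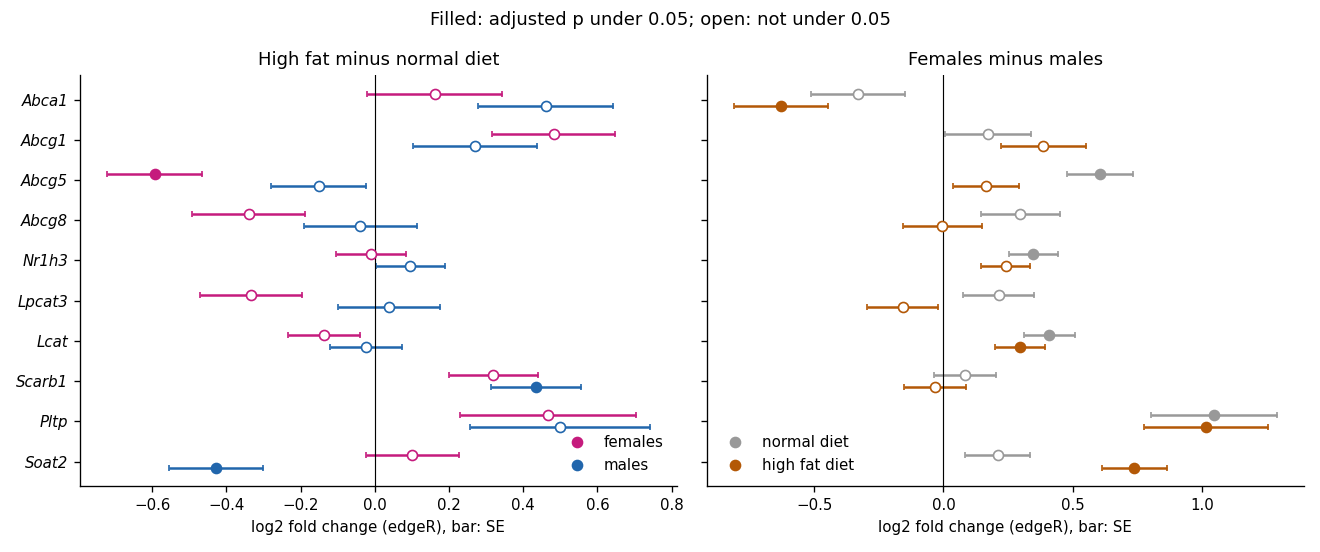
Log2 fold changes of the 10 genes with bars of 1 SE, for diet in each sex and for females minus males on each diet. Filled points passed an adjusted p under 0.05 in edgeR, and the largest is Pltp between the sexes at 1.05.

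Other genes of the pathway were set beside the members. Over all tested genes 11.5% were called with diet in females and 11.4% in males. Between the sexes 15.7% were called on the normal diet and 20.4% on the high fat diet. Of 11 LXR partners and coregulators, 1 rose with diet in each sex: Rxrg, a retinoid X receptor, at 0.64 ± 0.20 in females (adjusted p = 0.04478) and 0.75 ± 0.21 in males (adjusted p = 0.02565). The female call was lost without replicate 1, 2 or 3 of the females on the normal diet (adjusted p = 0.07496, 0.1206 and 0.1051). It was lost without replicate 1, 2 or 4 of the females on the high fat diet (adjusted p = 0.1272, 0.0523 and 0.07834). Among males, it was lost without replicate 3 on the normal diet (adjusted p = 0.05466) or replicate 4 on the high fat diet (adjusted p = 0.05154). No filter (adjusted p = 0.05546), only the groups compared (adjusted p = 0.05078) and a replicate block (adjusted p = 0.05681) also lost it. Its adjusted p ran from 0.004784 to 0.1272. The male call was lost without replicate 1, 2 or 3 of the males on the normal diet (adjusted p = 0.05697, 0.07676 and 0.06556), without replicate 2 or 3 of the males on the high fat diet (adjusted p = 0.08687 and 0.08384) and with those 2 averaged (adjusted p = 0.0856), and ran from 0.01076 to 0.08687. Nr1h2, which encodes LXR beta, and Rxrb were higher in females on the high fat diet, at 0.47 ± 0.13 (adjusted p = 0.01585) and 0.37 ± 0.11 (adjusted p = 0.02569). Both calls were lost without replicate 1 of the females on that diet (adjusted p = 0.05153 and 0.08737), and that of Rxrb also without replicate 2 or 4 of the males on it (adjusted p = 0.08253 and 0.07065). The Rxrb call was also lost with no filter (adjusted p = 0.05411) and with only the groups compared (adjusted p = 0.06846). Adjusted p ran from 0.001433 to 0.05153 for Nr1h2 and from 0.006484 to 0.08737 for Rxrb. Of 15 other LXR targets, 2 rose in females, Lpl and Arl4c, and 1 fell in males. Arl4c, a small GTPase, rose by 0.64 ± 0.19 (adjusted p = 0.03356). Its call was lost without replicate 1, 3 or 4 of the females on the normal diet (adjusted p = 0.05085, 0.06934 and 0.09363) and without replicate 1 or 4 of those on the high fat diet (adjusted p = 0.05607 and 0.1266), which left 1 target called in females. The Arl4c call was also lost with no filter (adjusted p = 0.08505) and with only the groups compared (adjusted p = 0.05785), and ran from 0.007994 to 0.1266. Arl4c was low, at 2.45 ± 0.32 CPM in females on the normal diet and 3.82 ± 0.84 on the high fat diet. Males had 2.32 ± 0.40 and 3.38 ± 0.34 CPM, groups that did not overlap, and the change was not called there. In males 2 targets were called without replicate 1 of the females on the high fat diet. Lpl, the lipase that frees fatty acids from circulating triglyceride, rose by 1.83 ± 0.36 in females (adjusted p = 0.006253, called in all 24 alternatives) and had a log2 fold change of -0.21 ± 0.35 in males (adjusted p = 0.7503). The difference between the sexes for Lpl was 2.03 ± 0.50 (adjusted p = 0.08862). Rnf145, an E3 ligase of the endoplasmic reticulum, fell by 1.05 ± 0.20 in males (adjusted p = 0.002927). Srebf1, whose product drives fatty acid synthesis, had log2 fold changes of 0.46 ± 0.31 in females (adjusted p = 0.3614) and 0.56 ± 0.31 in males (adjusted p = 0.2596). Apoe had 0.05 ± 0.13 and 0.17 ± 0.13, neither called.

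Between the sexes, 2 of the 15 other targets were higher and 1 was lower in females on the normal diet, beside 15.7% of all tested genes called. Mylip, the E3 ligase that degrades the LDL receptor, was higher by 0.47 ± 0.13 (adjusted p = 0.02422), Smpdl3a by 0.50 ± 0.11 (adjusted p = 0.005938), and Lpl was lower, at -1.34 ± 0.36 (adjusted p = 0.0222). The Smpdl3a call held in all 24 alternatives. That of Mylip was lost without replicate 1, 2 or 4 of the females (adjusted p = 0.05511, 0.06489 and 0.05957) or replicate 3 of the males (adjusted p = 0.07321) on the normal diet. It was also lost on log2 TPM with a pseudocount of 1 (limma, adjusted p = 0.051), and ran from 0.005703 to 0.07321. That of Lpl was lost without replicate 1, 3 or 4 of the same females (adjusted p = 0.06291, 0.05314 and 0.06198). It was also lost with no filter (adjusted p = 0.06282) and with only the groups compared (adjusted p = 0.06794), and ran from 0.0004565 to 0.06794. On the high fat diet 2 of the 15 were called, Rnf145 and Fasn, both higher in females, beside 20.4% of all tested genes. Rnf145 was higher by 0.71 ± 0.20 (adjusted p = 0.01915). That call was lost without replicate 1 of the females on that diet (adjusted p = 0.07287). It was also lost without replicate 4 of the males on it (adjusted p = 0.05257), and ran from 0.003492 to 0.07287. Fasn was at 85.8 ± 33.0 CPM in females against 39.0 ± 14.7 in males. Its call held in 11 of the 24 alternatives, with adjusted p from 0.01352 to 0.1366.

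Over all tested genes 11.5% were called with diet in females and 11.4% in males. Of 18 tested genes of HDL and sterol handling, 1 fell with diet in females, and 1 rose and 3 fell in males (Lipg, Apom and Stard4). The female count was 3 without replicate 1 of either high fat group, and 2 without replicate 3 of the females on the high fat diet or replicate 1 or 2 of the males on the normal diet. It was 3 in DESeq2 and 4 on log2 TPM. Lipg, endothelial lipase, fell in both sexes, by 1.66 ± 0.21 in females (adjusted p = 0.0001438) and 1.38 ± 0.21 in males (adjusted p = 0.0006346). Gramd1c, a sterol transfer protein at membrane contacts, rose in males by 0.40 ± 0.11 (adjusted p = 0.03159) and was lower in females than males on the high fat diet, at -0.60 ± 0.12 (adjusted p = 0.001765). The rise was lost without replicate 1, 3 or 4 of the males on the normal diet (adjusted p = 0.08369, 0.06471 and 0.09892) or replicate 1 of those on the high fat diet (adjusted p = 0.09389). It was also lost with no filter (adjusted p = 0.05234) and with only the groups compared (adjusted p = 0.0512), and ran from 0.01892 to 0.09892. Npc2, which binds cholesterol in the lysosome, was higher in females on the high fat diet by 0.83 ± 0.13 (adjusted p = 0.0003511), and Lipc, hepatic lipase, by 0.83 ± 0.15 (adjusted p = 0.001365). Both were also higher in females on the normal diet, called in all 24 alternatives. The log2 fold changes there ran from 0.46 to 0.64 for Npc2 and from 0.72 to 0.92 for Lipc. Npc1l1, which takes up sterols, reached at most 3 counts and was not tested.

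Among the enzymes that make and clear oxysterols, Hsd3b7, an enzyme of bile acid synthesis, rose by 0.87 ± 0.13 in females (adjusted p = 0.0004893) and 0.68 ± 0.13 in males (adjusted p = 0.003129). Cyp27a1, which makes 27-hydroxycholesterol, fell in females by 0.74 ± 0.17 (adjusted p = 0.009455). Cyp39a1 also fell in females, by 1.01 ± 0.26 (adjusted p = 0.02143). Its call was lost without replicate 1, 2 or 4 of the females on the normal diet (adjusted p = 0.05711, 0.05976 and 0.07079) or replicate 1 or 4 of those on the high fat diet (adjusted p = 0.06793 and 0.06891). It was also lost with no filter (adjusted p = 0.08052), and ran from 0.001337 to 0.08052. On the normal diet Cyp39a1 was higher in females than in males (edgeR, adjusted p = 0.001589), and this held in all 24 alternatives. The levels were 126.1 ± 28.2 against 44.0 ± 7.96 CPM (mean ± SD, n = 4). On the high fat diet they were 62.4 ± 13.4 against 53.0 ± 21.3 CPM, and the difference was not called. Cyp7b1, which clears oxysterols, was lower in females than in males on both diets, at -4.41 ± 0.57 (adjusted p = 0.0002634) and -4.13 ± 0.57 (adjusted p = 0.0003707). In the males on the high fat diet Cyp7b1 ran from 140.1 to 1001 CPM. Of 12 SREBP2 targets, 11 fell in each sex, with median log2 fold changes of -1.41 and -1.43, beside 0.00 and 0.01 over all tested genes. Over all tested genes 5.76% were called lower with diet in females and 5.36% in males. Insig1, which holds SREBP in the endoplasmic reticulum, fell by 0.58 ± 0.10 in females (adjusted p = 0.001191) and 1.65 ± 0.10 in males (adjusted p = 1.713e-08), and its change differed between the sexes by 1.07 ± 0.14 (adjusted p = 0.001103). Idi1, an enzyme of cholesterol synthesis, fell by 2.33 ± 0.32 in females (adjusted p = 0.0003643). It also fell in males, from 273.9 ± 53.7 to 85.9 ± 11.7 CPM (mean ± SD, n = 4). There it was called in all 24 alternatives, with log2 fold changes from -1.80 to -1.57.

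**Figure D5:**
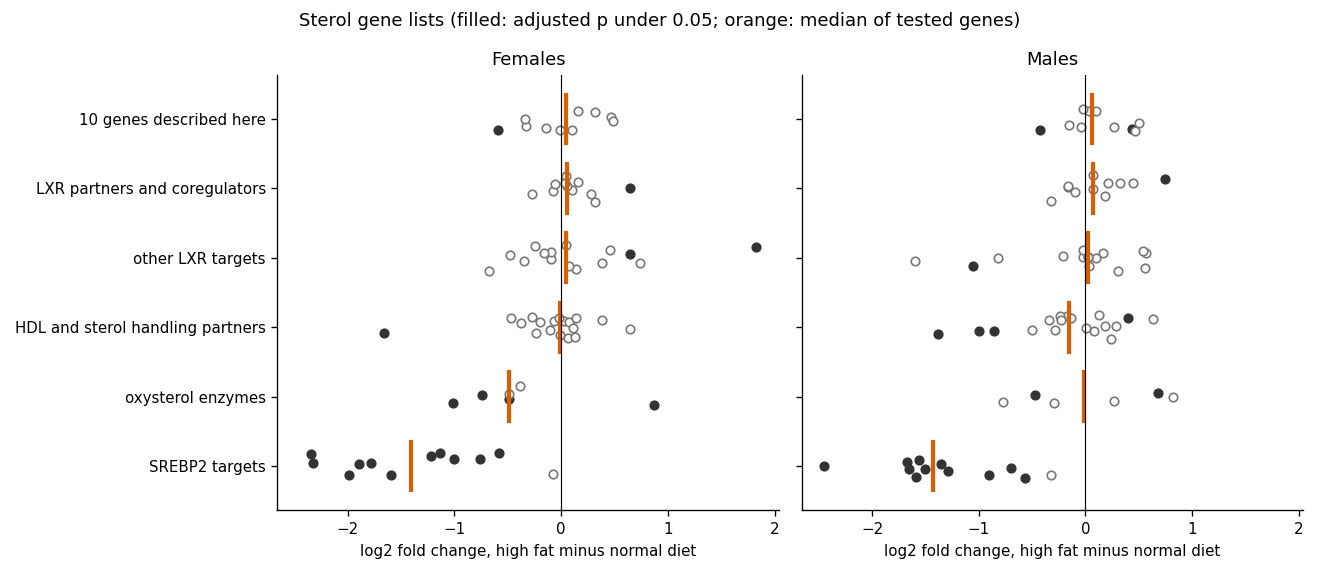
Log2 fold change with diet of each gene in the members and in the other lists, 1 point per tested gene, in females and in males. The SREBP2 targets lie lowest, with medians of -1.41 in females and -1.43 in males, and the members lie around 0.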

How the data were processed

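RNA was extracted from powdered whole liver and poly(A) libraries were sequenced on a NovaSeq instrument, per the labels' protocols. The authors aligned and quantified with STAR and RSEM on GRCm39, per the submitters' processing notes; tool versions are not given in the sources used here. The deposited tables hold expected counts and TPM per gene, per the file headers. Of the expected counts, 4.89% were not whole, and they were rounded. Gene symbols were found for 51487 of the 78317 gene identifiers in a reference table.

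Genes were kept by filterByExpr in edgeR 4.0.16 (R 4.3.3), which left 14781. Libraries were scaled by TMM. The quasi-likelihood test with robust settings was fitted to all 16 libraries with 1 mean per group, and 5 two-sided contrasts were taken: diet in each sex, the difference of these, and sex on each diet. A gene was called at a Benjamini-Hochberg adjusted p under 0.05 over all tested genes. The SE is the size of the log2 fold change over the square root of F. All members are described in each contrast, in the difference of the diet changes partly by their range, and from the other lists up to 4 called genes in order of adjusted p, with Srebf1, Mylip, Nr1h2 and Apoe in any case; a gene outside that order is named where a count of 5 or fewer includes it, chosen after its values were seen. Counts for the list of oxysterol enzymes are not reported here. The members and lists were chosen with earlier results of these data known. Promoter sequences came from RefSeq (GRCm38.p6), and exon overlaps from GENCODE M21. Alternatives were DESeq2 1.42.0, RLE scaling, no filter, limma 3.58.1 on log2 TPM (pseudocount 1 or 0.1), a replicate block, a fit of only the groups compared, averaging a close pair of libraries, and leaving out each library.

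Replicate numbers share a label across groups; nothing in the labels says that they mark shared animals, litters or days, so the fit without a block was used.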

Additional observations from a re-analysis of the deposited data

Results flagged for a closer look

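Within each group of 4, the gap from the highest or lowest library to its nearest neighbour was set against Dixon's critical value for 4 values, for 10 members in 4 groups. Of 40 groups, 2 passed, and chance passes about 1 group in 20. Abcg8 in females on the normal diet had its lowest library, replicate 1, at 99.75 CPM, with a gap of 0.831 of the range. Pltp in males on the high fat diet had its lowest library, replicate 4, at 16.82 CPM, with a gap of 0.959 of the range.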

How the results depend on the processing

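The 5 counts of called members were 1 for diet in females, 2 for diet in males, 0 for the difference, 4 for sex on the normal diet and 4 for sex on the high fat diet. Diet in females gave 2 in DESeq2 (Abcg1 and Abcg5), 2 on log2 TPM with either pseudocount (Abcg1 and Scarb1) and 2 with a replicate block (Abcg5 and Scarb1), and 1 to 2 when each library was left out. Diet in males gave 1 with no filter (Scarb1), 1 on log2 TPM with either pseudocount (Scarb1) and 1 with replicates 2 and 3 of the males on the high fat diet averaged (Soat2), and 0 to 2 when each library was left out. It was 0 in edgeR without replicate 1 or replicate 3 of the males on the normal diet, with 2 and 3 members at an unadjusted p under 0.05. Sex on the high fat diet gave 2 with only the groups compared (Pltp and Soat2), and 2 to 4 when each library was left out, with 2 without replicate 1 of the females or replicate 4 of the males on that diet. Sex on the normal diet gave 3 to 4, and the difference gave 0 throughout. With the replicate block the counts were 2, 2, 0, 4 and 5, the last with Nr1h3 added (0.24, adjusted p = 0.04064). Same-numbered libraries had correlations of their deviations from -0.159 to 0.18 (median 0.044, 24 pairs), beside -0.272 to 0.187 for other pairs (median -0.018, 72 pairs). A fit of only the groups compared was not possible for the difference, which uses all 4. Signs turned only for uncalled values, and the cause was not tested. On log2 TPM the median of all tested genes was 0.149 and 0.222 for diet in females, 0.051 and 0.078 for diet in males, 0.107 and 0.145 for the difference and 0.102 and 0.152 for sex on the high fat diet, with pseudocounts of 1 and 0.1. The values that turned there, before removing these medians, were, for diet in females, Nr1h3 at 0.22 and 0.22 and Lcat at 0.10 and 0.10. For diet in males they were Abcg8 at 0.032 and 0.033 and Lcat at 0.049 and 0.050. For the difference they were Nr1h3 at 0.048 and 0.048, Pltp at 0.14 and 0.12, Lcat at 0.055 and 0.055 and Scarb1 at 0.056 and 0.056. For sex on the high fat diet they were Abcg8 at 0.12 and 0.13, Lpcat3 at 0.029 and 0.030 and Scarb1 at 0.14 and 0.14. Abcg8 between the sexes on the high fat diet, -0.0038 as reported, was 0.014 with RLE scaling, no filter or DESeq2 and 0.021 with only the groups compared. With the close pair averaged it was 0.057 and Scarb1 0.035, while Lpcat3 was -0.053 for diet in males and Pltp 0.0040 for the difference. When each library was left out, the ranges were -0.039 to 0.27 for Abca1 and -0.089 to 0.054 for Nr1h3 with diet in females. With diet in males they were -0.11 to 0.027 for Abcg8, -0.074 to 0.12 for Lpcat3 and -0.082 to 0.016 for Lcat. They were -0.11 to 0.15 for Abcg8 and -0.076 to 0.033 for Scarb1 between the sexes on the high fat diet, and -0.30 to 0.19 for Pltp in the difference. With 4 libraries a group, and 118 to 385 counts for Abcg1, changes smaller than the printed standard errors were not resolvable. Larger ones also stayed uncalled, such as Abcg1 with diet in females and Soat2 in the difference. An uncalled value is not evidence of no change.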
